A study of Setaria viridis with 22 samples.

Results

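The genes described here are 144 of the 35214 genes of *Setaria viridis* (green foxtail) whose mRNA rose most between 10 and 12 d after sowing (DAS) in the inflorescence of the wild-type accession A10.1. They were chosen on the A10.1 means alone, from 12632 genes that had a mean of at least 5 FPKM (fragments per kilobase of transcript, scaled to the mapped reads of the library) at 12 DAS and that changed by no more than 1 log2 unit between 12 and 14 DAS. The 150 genes with the largest difference of log2(mean FPKM + 1), 12 minus 10 DAS, were taken, and 6 of these are not described here. The A10.1 values are therefore given as a description, with no test, and what was tested is the same genes in *spp1*, whose libraries had no part in the choice. Just inside the limit lay Sevir.7G100600 and Sevir.7G109900, with differences of 0.90 each, and the nearest genes outside, Sevir.8G160800 and Sevir.9G107200, had 0.89 each.

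Both groups were pools of hand-dissected inflorescence primordia of chamber-grown seedlings, with 4 libraries from 10 DAS, 3 from 12 DAS, and 4 from 14 DAS for *spp1* and for A10.1. The A10.1 reads had also been deposited earlier by the authors. Whether both genotypes were collected and sequenced together is not stated in the sources used here. The *spp1* plants carry a mutation of *sparse panicle1* (*SPP1*), which encodes an auxin importer, in the A10.1 background, and the labels do not name the allele. The comparison asks how gene expression in the inflorescence differs when this importer is mutated. Between 10.4 M and 24.3 M first reads mapped per library. The mRNA of *SPP1* itself (Sevir.5G392400) was present in all libraries. At 10 DAS it overlapped, with 16.8 to 29.9 FPKM in *spp1* and 21.2 to 38.1 FPKM in A10.1. It was lower in all *spp1* libraries at 12 DAS, with 16.6 to 21.6 FPKM against 24.6 to 29.2 FPKM in A10.1, and at 14 DAS, with 16.5 to 28.2 FPKM against 30.1 to 36.1 FPKM in A10.1. Replicate 4 of *spp1* at 14 DAS stood apart from the other libraries on the second principal component (-58.23, the others -22.43 to 26.39) and had the fewest mapped reads. In whole inflorescences, more cells of a type and more RNA per cell cannot be told apart.

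At these stages the inflorescence meristem of a grass gives rise to branch meristems, and in Setaria these end in spikelets or in sterile bristles. The step is known to involve MADS-box factors of the APETALA1 and SEPALLATA groups, which specify spikelet and floral meristems, and SQUAMOSA PROMOTER BINDING PROTEIN-LIKE (SPL) factors, which act in phase change and branching. TEOSINTE BRANCHED1 (TB1) factors repress the outgrowth of axillary buds, and CUP-SHAPED COTYLEDON (CUC) factors mark the boundaries between organs and meristems.

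In A10.1, where they were chosen, the 144 genes differed between 12 and 10 DAS by 0.90 to 3.54 on the log2 scale, with a median of 1.34, and 116 of them by more than 1. The ratio of the mean FPKM values ranged from 1.87-fold to 16.8-fold. Their means at 12 DAS spanned 5.07 to 901 FPKM. The 3 libraries of 12 DAS lay above all 4 of 10 DAS for 141 of the 144 genes, as they did for 14.78% of all genes tested in A10.1, and 6.83% of those genes passed limma's test as higher. The rule fixed this contrast, so neither share says anything about the set. Most of the genes were higher still at the last stage, with a higher mean at 14 than at 12 DAS for 114, a lower one for 30, and a median change of 0.38.

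The same genes were for the most part also higher at 12 than at 10 DAS in *spp1*, with a smaller median change. The mean was higher for 140 of the 144 genes and lower for 4, with a median change of 0.84 on the log2 scale against 0.09 over all genes tested. By limma, on log2(FPKM + 1) in the 11 *spp1* libraries, 66 of the 143 members tested rose and 0 fell at an adjusted p under 0.05, the threshold for every call below, where 1.12% of the 17902 genes tested rose and 1.42% fell. At an unadjusted p under 0.05, 111 members were higher and 0 lower, and the share of all genes tested past that limit was not counted. The *spp1* libraries of 12 DAS lay above all those of 10 DAS for 98 members and for 19.61% of all genes tested. One member, the peroxidase gene Sevir.2G418800, had a mean under 1 FPKM in *spp1* and was not tested. The count of 66 depended on which libraries entered. When replicate 1 of *spp1* at 12 DAS, which had the highest median over the members of the 3 libraries of that group, was left out, 25 rose, where 0.257% of all genes tested did. When replicate 4 of 14 DAS was left out, 83 rose, where 3.64% of all genes tested did. In all 11 fits that each left out 1 library, 25 members kept their call, and each of the other members called lost it in at least 1 of these fits.

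**Figure D1:**
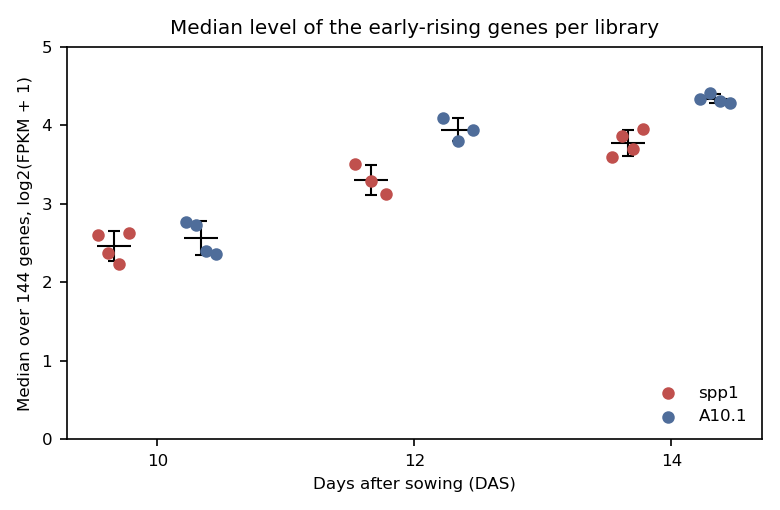
Median over the 144 genes of log2(FPKM + 1) in each library (points), for *spp1* on the left and A10.1 on the right at 10, 12, and 14 DAS, with the mean and SD of the 3 or 4 libraries in black. At 12 DAS the *spp1* libraries lie at 3.13 to 3.50 and the A10.1 libraries at 3.80 to 4.09, whereas at 10 DAS the genotypes overlap. The A10.1 means chose the genes, which favours a high A10.1 level at 12 DAS.

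Per library, the median over the members was 2.23 to 2.62 in *spp1* at 10 DAS, 3.13 to 3.50 at 12 DAS, and 3.60 to 3.96 at 14 DAS, on the log2(FPKM + 1) scale. In A10.1 it was 2.36 to 2.77 at 10 DAS, 3.80 to 4.09 at 12 DAS, and 4.28 to 4.41 at 14 DAS. Both genotypes thus overlapped at 10 DAS and were apart at 12 and 14 DAS, and the *spp1* libraries of 14 DAS overlapped the A10.1 libraries of 12 DAS. The rule chose genes with a large A10.1 rise by 12 DAS, so it had a part in this separation, which was not tested. The members held 0.319 ± 0.0597% of the summed FPKM in *spp1* at 10 DAS (SD, n = 4), 0.603 ± 0.0917% at 12 DAS (n = 3), and 0.872 ± 0.116% at 14 DAS (n = 4). For A10.1 the shares were 0.296 ± 0.0508%, 0.834 ± 0.106%, and 1.05 ± 0.0755%, with the same numbers of libraries.

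At 14 DAS most of the set was higher than at 10 DAS in *spp1*. Compared with 10 DAS, 120 of the 143 members were higher at 14 DAS by limma and 0 lower, where 8.11% and 10.09% of all genes tested were, and without replicate 4 of *spp1* at 14 DAS 120 were higher. At an unadjusted p under 0.05, 125 members were higher and 2 lower, again without a count over all genes tested. All 66 members called at 12 DAS were among the 120, and 54 more were called at 14 DAS only. The median change over the members was 1.41, against 0.05 over all genes tested. Between 12 and 14 DAS, 23 members rose and 1 fell in *spp1* (0.676% and 0.877% of all genes tested), with a median change of 0.61, and 128 had a higher mean. The 23 included the SPL gene Sevir.2G336100, the MADS-box genes Sevir.9G087100 and Sevir.2G006400, the TCP gene Sevir.9G122200, and both Sevir.5G249500 and Sevir.5G251100 of the auxin pathway. This count fell to 3 without replicate 2 or without replicate 4 of *spp1* at 12 DAS, and to 13, 12, and 9 without replicate 1, 2, or 3 of *spp1* at 14 DAS. The member that fell, Sevir.4G206500, has no description (change -0.80, adjusted p = 0.037 by limma), and its call was lost in 9 of the 11 fits that each left out 1 library.

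**Figure D2:**
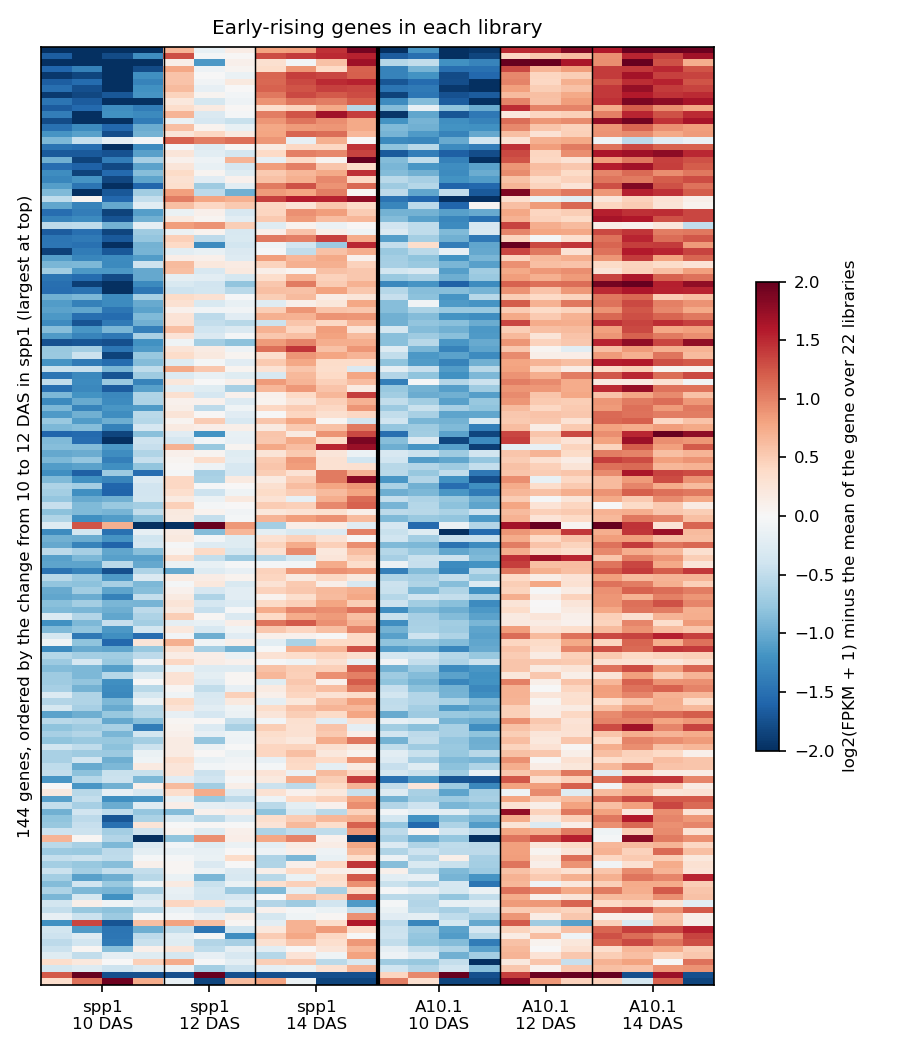
Level of the 144 genes (rows) in the 22 libraries (columns, *spp1* left of A10.1, each from 10 to 14 DAS), as log2(FPKM + 1) minus the mean of the gene over all libraries, with colours limited to -2 and 2. Most rows turn from blue at 10 DAS to near white in *spp1* and to red in A10.1, which chose the genes, at 12 DAS, and in the lower part, where the *spp1* change is smaller, most rows differ less in colour between 10 and 12 DAS in *spp1*.

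Across the members, the changes of the 2 genotypes between 10 and 12 DAS went together, with Pearson's r = 0.70 and Spearman's rho = 0.68 over 144 genes. These genes come from the same libraries and are not independent, so no p is given. As a median over the members, the *spp1* change was 61.8% of the A10.1 change. The choice of the members by a large A10.1 change favours a smaller change in *spp1*, so these values are a description only. The *spp1* change was the larger for 3 of the 144 members, the F-box gene Sevir.2G067200 (1.38 in *spp1* and 1.33 in A10.1) and Sevir.3G140800 and Sevir.2G270800, which have no description. The 66 members called at 12 DAS had a median change of 1.17 in *spp1* and 1.52 in A10.1, and the 54 called at 14 DAS only had 0.67 in *spp1* and 1.25 in A10.1. The standard error of the *spp1* change, by limma, had a median of 0.191 among the 66 and 0.244 among the 54. The 23 members called in no contrast had a median *spp1* change of 0.43 and a median standard error of 0.288.

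**Figure D3:**
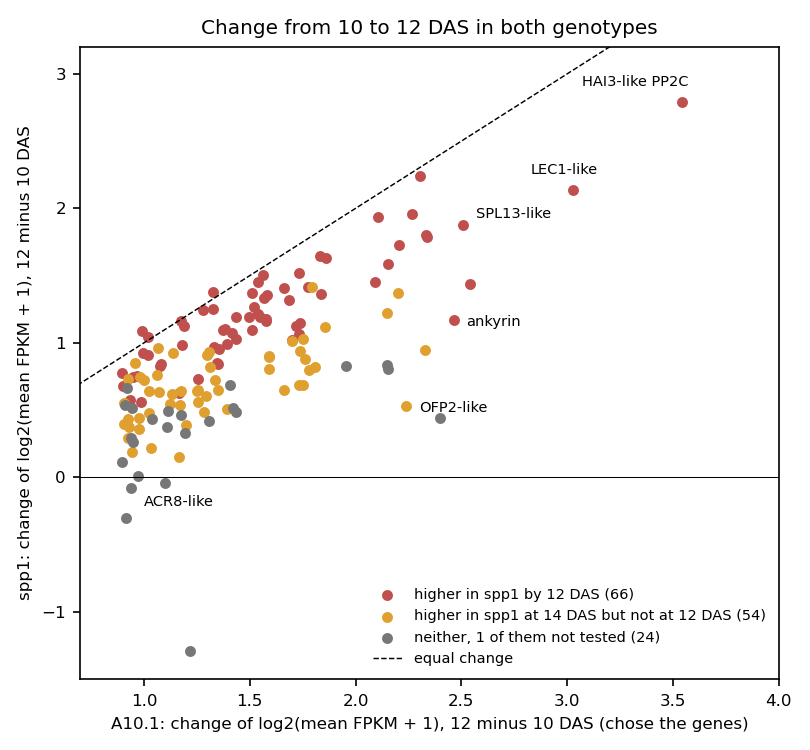
Change of log2(mean FPKM + 1), 12 minus 10 DAS, of each of the 144 genes in *spp1* (vertical) and in A10.1 (horizontal, which chose the genes), coloured by the limma test in *spp1* alone. All but 3 of the points lie below the dashed line of equal change, and 4 lie below 0.

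The difference between the genotypes, which shares the A10.1 libraries with the rule, is given without a test. At 10 DAS the members were close, with a median of *spp1* minus A10.1 of -0.07 on the log2 scale, and 89 of 144 were lower in *spp1*, 12 of them with no overlap of the libraries (1.27% of all genes tested). Of all genes tested, 58.1% were lower in *spp1* at 10 DAS, 49.6% at 12 DAS, and 63.8% at 14 DAS. At 12 DAS the median was -0.58 and 136 were lower in *spp1*, and for 84 members all *spp1* libraries were below all those of A10.1, as they were for 5.42% of all genes tested. At 14 DAS the median was -0.46, 125 were lower, and 52 had no overlap, against 10.21% of all genes. The reverse, all *spp1* libraries above all those of A10.1, held for 1 member at 10 DAS (1.32% of all genes tested), 2 at 12 DAS (7.37%), and 2 at 14 DAS (4.09%). Over all genes tested the medians were -0.03, 0.00, and -0.09 over the stages in order. The level that the members had in *spp1* at 14 DAS was close to that in A10.1 at 12 DAS, with a median difference of -0.05 and 65 of the 144 genes higher in *spp1* at 14 DAS. The first principal component of all genes, with 48.8% of the variance, also set the genotypes apart, lying between -10.71 and 4.26 in *spp1* and between 14.16 and 16.52 in A10.1 at 12 DAS, and its part in these differences was not tested.

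A list chosen by the same rule from the *spp1* means held 146 genes, 51 of them among the 144 members, which is 34.9% of the list from *spp1* and 35.4% of the members. Its median change between 10 and 12 DAS was 0.82 in *spp1*, which chose it, and 0.83 in A10.1, which did not, and 98 of its 145 genes tested in A10.1 rose there by limma, where 6.83% of all genes did. The members themselves had medians of 0.84 in *spp1* and 1.34 in A10.1. Its genes had a median difference, *spp1* minus A10.1, of -0.12 at 10 DAS, -0.12 at 12 DAS, and -0.23 at 14 DAS. Whether the lists differ was not tested. Of the members, 43 were under 5 FPKM at 12 DAS in *spp1* and 25 changed there by more than 1 log2 unit between 12 and 14 DAS, so they could not enter the second list.

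The descriptions come from the authors' tables of genes that differed between the genotypes at some stage and, for genes absent there, from the study's list of auxin genes. With both sources, 95 of the members have a usable description. Of these, 27 matched the words used for transcription factor classes, and 17 of the 27 rose by 12 DAS in *spp1* by limma and 24 by 14 DAS. The classes include zinc finger genes, with 4 of the 27, and these 4 all rose by 12 DAS. Among them, Sevir.7G274100 and Sevir.9G163100 also matched protein breakdown, and Sevir.9G163100 is described as a probable ubiquitin ligase. The nuclear factor Y gene Sevir.1G308700 matched none of the words. Of all 278 described and tested genes of these classes, 110 of them in the zinc finger class, 26 rose and 12 fell by 12 DAS in *spp1*. The counts of classes below are over such described genes only, and each class total includes the members. Class totals were not counted at 14 DAS, where 120 of the 143 members tested and 8.11% of all genes tested were higher than at 10 DAS. No member matched the words used to find genes of photosynthesis, of cell wall enzymes, or of lipid and cuticle metabolism, which found 32, 47, and 42 tested genes.

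All 3 MADS-box members rose by 12 DAS in *spp1*, as did 6 of the 13 MADS-box genes described, with 0 lower. Sevir.2G006400, annotated as the homolog of maize *zap1* and of the APETALA1-like rice MADS15, had 19.5, 20.8, 15.3, and 32.5 FPKM at 10 DAS, 115, 76.7, and 69.9 at 12 DAS, and 175, 202, 195, and 178 at 14 DAS in *spp1*. A10.1 had 29.8, 33, 21.5, and 25.2 FPKM at 10 DAS, 151, 104, and 109 at 12 DAS, and 205, 246, 201, and 198 at 14 DAS. The libraries of 12 DAS stood above those of 10 DAS in both genotypes, and the change in *spp1* was 1.95 (SE 0.22, limma adjusted p = 0.00172). Sevir.9G087100, the homolog of rice MADS34, a SEPALLATA-like factor, had 13.7, 11.4, 8.83, and 16.9 FPKM at 10 DAS, 63.7, 36.1, and 40.7 at 12 DAS, and 93.4, 98.3, 106, and 104 at 14 DAS in *spp1*. A10.1 had 14.2, 14.6, 9.89, and 8.93 FPKM at 10 DAS, 72.5, 57.6, and 61.5 at 12 DAS, and 109.8, 139, 108, and 106 at 14 DAS, and the genotypes overlapped at each stage. Its change in *spp1* was 1.79 (SE 0.21, limma adjusted p = 0.00182). Sevir.9G087300, an APETALA1-like gene with an identifier close to that of Sevir.9G087100, changed by 1.51 (SE 0.17, limma adjusted p = 0.00175).

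The 3 SPL members also rose by 12 DAS in *spp1*, against 4 of 6 described SPL genes. Sevir.2G336100, similar to rice SPL13, was the most abundant of them. It had 66.1, 71.5, 48.5, and 82.1 FPKM at 10 DAS, 309.6, 199.6, and 239 at 12 DAS, and 463, 523, 586, and 612 at 14 DAS in *spp1*. A10.1 had 63.3, 71.6, 60.1, and 44.3 FPKM at 10 DAS, 416, 278, and 343 at 12 DAS, and 499, 580.5, 609, and 502 at 14 DAS, and the ranges of the genotypes overlapped at each stage. The change in *spp1* was 1.88 (SE 0.18, limma adjusted p = 0.00113). Sevir.6G212600, similar to rice SPL14, a regulator of panicle branching in rice, changed by 1.21 (SE 0.18, limma adjusted p = 0.00653), and the SPL7-like Sevir.7G202100 by 0.84 (SE 0.18, limma adjusted p = 0.0357). Both TB1-like TCP members rose, and they were the only ones to rise among the 6 TCP genes described and tested, of which 1 fell. Sevir.9G122200, annotated as the homolog of maize *tb1*, had 5.08, 4.29, 2.72, and 3.19 FPKM at 10 DAS, 18.4, 12.1, and 14.5 at 12 DAS, and 30.3, 33.9, 32.8, and 37.2 at 14 DAS in *spp1*. A10.1 had 6.01, 8.17, 4.26, and 2.99 FPKM at 10 DAS, 32.2, 24.1, and 28.7 at 12 DAS, and 45.1, 60.8, 56.6, and 51.1 at 14 DAS. At 12 and 14 DAS the *spp1* libraries were all below the lowest of A10.1, and the change in *spp1* was 1.74 (SE 0.18, limma adjusted p = 0.00118). The other, Sevir.2G210100, was scarce at 10 DAS, with at most 0.67 FPKM in *spp1* and 1.25 FPKM in A10.1, and changed by 1.92 (SE 0.26, limma adjusted p = 0.00383) in *spp1*. The calls of the MADS-box and TCP genes and of Sevir.2G336100 and Sevir.6G212600 were kept in all 11 fits without 1 library.

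**Figure D4:**
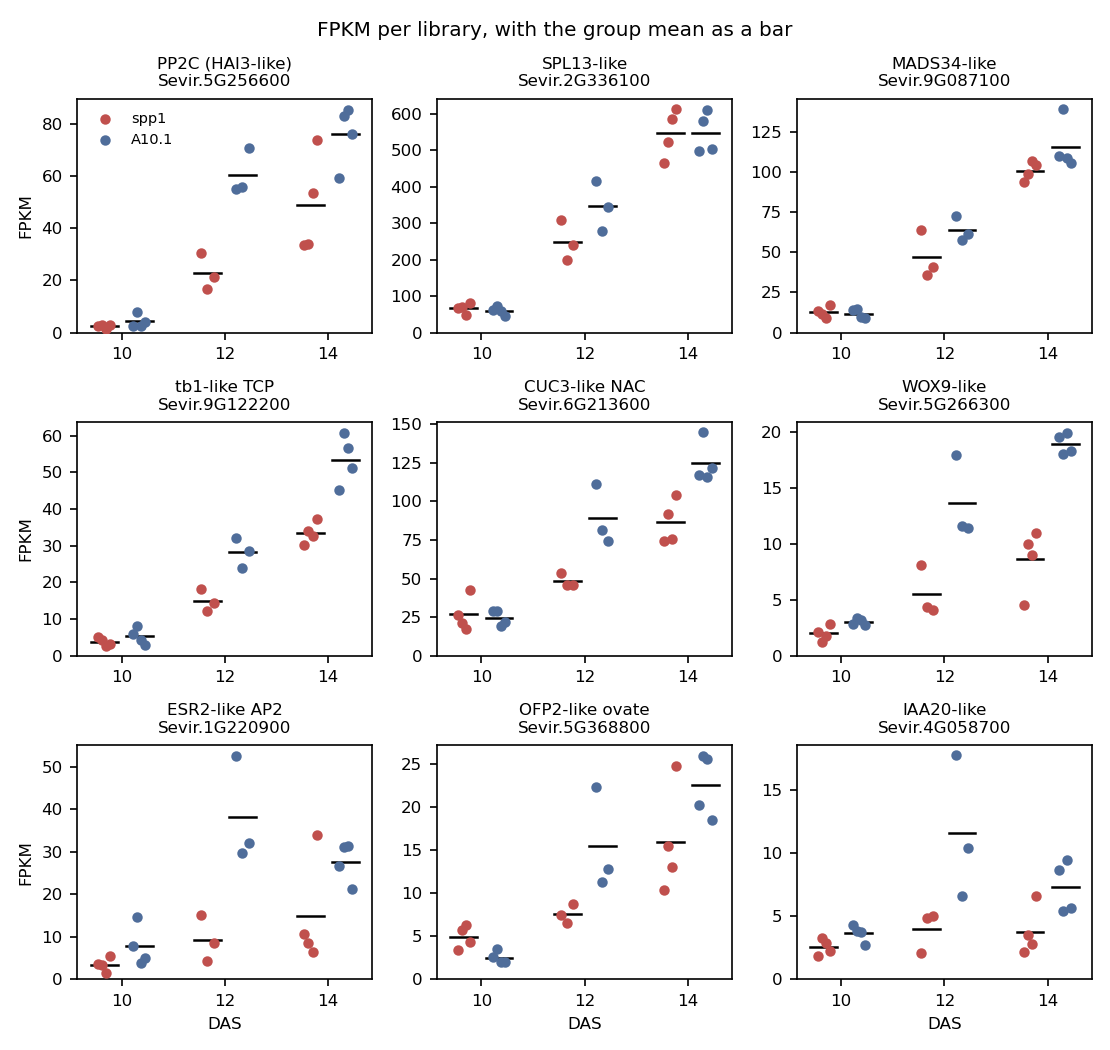
FPKM in each library (points) and group means (horizontal lines) of 9 of the genes at 10, 12, and 14 DAS, *spp1* left of A10.1, on linear axes that start at 0. In the top row and for the tb1-like gene all *spp1* points of 12 DAS lie above those of 10 DAS, whereas for the IAA20-like and ESR2-like genes they overlap.

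The 3 NAC members were not called at 12 DAS in *spp1* and were all called at 14 DAS, as were 120 of the 143 members tested and 8.11% of all genes tested. Of the 9 NAC genes described and tested, 0 rose and 1 fell by 12 DAS. Sevir.6G213600, similar to CUC3 of Arabidopsis, had 26.4, 21.1, 17.3, and 42.8 FPKM at 10 DAS, 53.9, 45.6, and 45.7 at 12 DAS, and 74.2, 92.01, 75.96, and 104 at 14 DAS in *spp1*. A10.1 had 29.1, 28.8, 19.03, and 22.1 FPKM at 10 DAS, 112, 81.8, and 74.6 at 12 DAS, and 117, 145, 116, and 122 at 14 DAS. The genotypes overlapped at 10 DAS and not afterwards, and the change in *spp1* by 12 DAS was 0.90 (SE 0.24, limma adjusted p = 0.0798) and by 14 DAS 1.72 (SE 0.22, limma adjusted p = 0.000325). Sevir.4G124400, similar to CUC2, had 31.3 to 74.3 FPKM at 10 DAS, 72.97 to 123 at 12 DAS, and 127 to 169.5 at 14 DAS in *spp1*, against 35.8 to 51.8 FPKM at 10 DAS, 147 to 161 at 12 DAS, and 182 to 224 at 14 DAS in A10.1, with an adjusted p of 0.0906 at 12 DAS and 0.000978 at 14 DAS by limma. Sevir.5G441400, a homolog of Arabidopsis NAC047 and among the 5 most abundant described members, had 196 to 216 FPKM at 10 DAS, 201 to 388 at 12 DAS, and 399 to 729.9 at 14 DAS in *spp1*, against 176 to 245 FPKM at 10 DAS, 399 to 529 at 12 DAS, and 455 to 688 at 14 DAS in A10.1, with a difference of 0.51 (SE 0.23, limma adjusted p = 0.243) between 12 and 10 DAS in *spp1*.

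Sevir.1G220900, similar to ENHANCER OF SHOOT REGENERATION 2 (ESR2), an AP2 factor of organ initiation in Arabidopsis, had 3.53, 3.38, 1.4, and 5.39 FPKM at 10 DAS, 15.2, 4.16, and 8.59 at 12 DAS, and 10.6, 8.53, 6.44, and 33.9 at 14 DAS in *spp1*. A10.1 had 7.84, 14.7, 3.73, and 5.01 FPKM at 10 DAS, 52.5, 29.7, and 32.1 at 12 DAS, and 26.6, 31.1, 31.4, and 21.3 at 14 DAS. All 3 *spp1* libraries of 12 DAS lay below those of A10.1, and replicate 4 of *spp1* at 14 DAS lay far above the other 3. Its change by 12 DAS was 1.15 (SE 0.52, limma adjusted p = 0.246) and by 14 DAS 1.64 (SE 0.48, limma adjusted p = 0.0355). The 5 homeobox members differed among themselves, 3 of them rising by 12 DAS and 4 by 14 DAS, when 8.11% of all genes tested were higher. These 3 were the only ones to rise by 12 DAS among all 27 described homeobox genes, of which 1 fell. The WUSCHEL-related Sevir.5G266300 (WOX9-like) had 1.28 to 2.84 FPKM at 10 DAS, 4.09 to 8.14 at 12 DAS, and 4.59 to 10.97 at 14 DAS in *spp1*, against 2.76 to 3.36 FPKM at 10 DAS, 11.4 to 17.96 at 12 DAS, and 18.1 to 19.99 at 14 DAS in A10.1, with a difference of 1.09 (SE 0.28, limma adjusted p = 0.0726) between 12 and 10 DAS in *spp1*. Sevir.3G044600, described as a putative WUSCHEL-related homeobox 2-like gene and here also taken as similar to WOX3, which acts at the margins of lateral organs, changed by 0.64 (SE 0.15, limma adjusted p = 0.0471). At the other end lay Sevir.7G109900, a zinc finger homeodomain gene similar to Arabidopsis HB22 and the last member inside the limit, with 127 to 245 FPKM at 10 DAS, 159 to 269 at 12 DAS, and 197 to 363 at 14 DAS in *spp1* and 108 to 201 FPKM at 10 DAS, 228 to 359 at 12 DAS, and 288 to 382 at 14 DAS in A10.1. Its change was 0.13 (SE 0.26, limma adjusted p = 0.785).

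**Figure D5:**
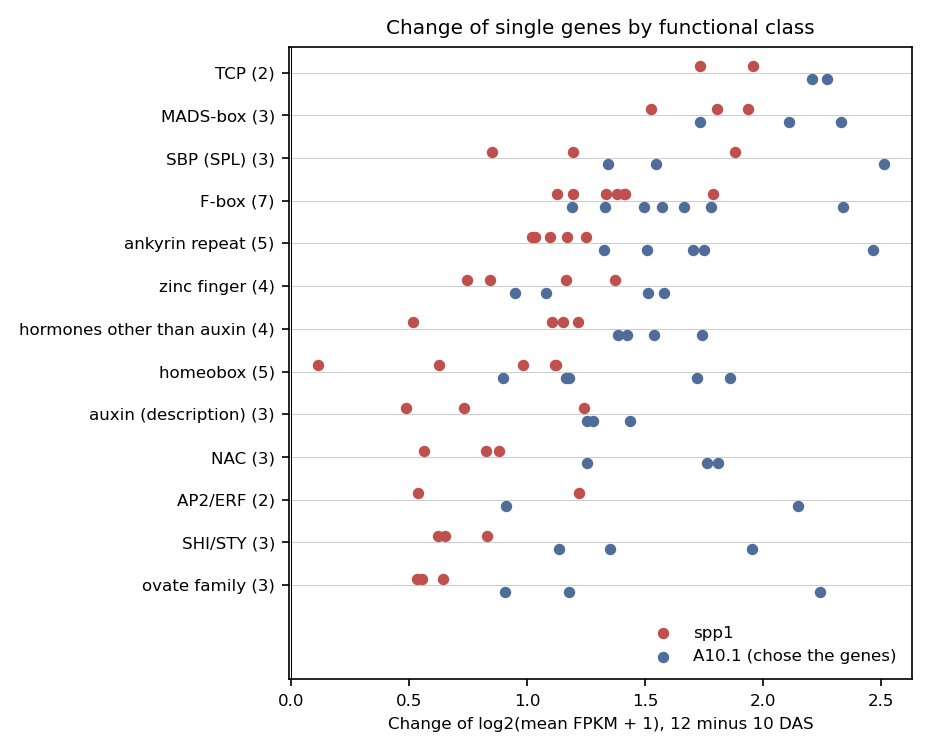
Change of log2(mean FPKM + 1), 12 minus 10 DAS, of single genes in 13 classes, with *spp1* above A10.1 in each row and the number of genes in brackets. In *spp1* both TCP genes and all 3 MADS-box genes lie at 1.52 or more, and the 3 ovate family genes lie at 0.53 to 0.64.

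Of the auxin pathway, 4 members are on a list of 85 auxin genes. The list comes from the work that made these libraries, and its genes were not taken as independent evidence. Over the 67 listed genes tested, 4 rose and 1 fell by 12 DAS in *spp1* by limma. Sevir.5G249500, a PIN-FORMED efflux carrier described as PIN3a-like, had 5.18, 5.36, 4.28, and 8.91 FPKM at 10 DAS, 22.6, 10.8, and 12.8 at 12 DAS, and 34.4, 32.99, 42.7, and 27.4 at 14 DAS in *spp1*. A10.1 had 6.91, 9.56, 7.74, and 5.31 FPKM at 10 DAS, 22.03, 15.6, and 20.4 at 12 DAS, and 35.1, 47.9, 35.8, and 39.2 at 14 DAS, so that the genotypes overlapped at 12 DAS. The change in *spp1*, 1.22 (SE 0.26, limma adjusted p = 0.0301), was close to the 1.28 of A10.1. Sevir.5G251100, similar to YUCCA4, an enzyme of auxin synthesis, changed by 0.72 (SE 0.16, limma adjusted p = 0.0357). The PINOID-like kinase gene Sevir.3G410700, homolog of a regulator of PIN proteins, had 16.8 to 35.8 FPKM at 10 DAS, 27.6 to 57.8 at 12 DAS, and 48.95 to 153 at 14 DAS in *spp1*, against 12.1 to 28.5 FPKM at 10 DAS, 38.97 to 83.5 at 12 DAS, and 67.6 to 109 at 14 DAS in A10.1, and was called in *spp1* at 14 DAS only (adjusted p = 0.22 at 12 DAS and 0.00403 at 14 DAS by limma). Sevir.4G058700, an Aux/IAA repressor similar to rice IAA20, had 1.85, 3.23, 2.89, and 2.25 FPKM at 10 DAS, 2.04, 4.86, and 5.03 at 12 DAS, and 2.16, 3.48, 2.81, and 6.62 at 14 DAS in *spp1*. A10.1 had 4.33, 3.82, 3.75, and 2.72 FPKM at 10 DAS, 17.8, 6.59, and 10.4 at 12 DAS, and 8.69, 5.43, 9.47, and 5.65 at 14 DAS. It was called at neither stage, with adjusted p values of 0.409 and 0.419 by limma, and its *spp1* libraries of 12 DAS lay below all those of A10.1. Without replicate 1 of *spp1* at 12 DAS, the adjusted p by limma was 0.137 for Sevir.5G249500 and 0.185 for Sevir.5G251100. Both calls were also lost without replicate 4 of 12 DAS or without replicate 1, 2, or 3 of 10 DAS, and that of Sevir.5G251100 without replicate 3 of 14 DAS. With the replicate number as a block the adjusted p by limma was 0.0663 for Sevir.5G249500 and 0.0583 for Sevir.5G251100, with no filter on low FPKM it was 0.0575 and 0.0585 in that order, and with median ratio scaling it was 0.11 for Sevir.5G251100.

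Of the 4 members described with other hormones, 3 rose by 12 DAS in *spp1*. These 3 were the only ones to rise among the 39 such genes described and tested, of which 2 fell. Sevir.7G180700, similar to gibberellin 2-oxidase 8, which inactivates gibberellin, had 0.42 to 1.72 FPKM at 10 DAS, 3.26 to 3.68 at 12 DAS, and 2.71 to 7.59 at 14 DAS in *spp1*, against 1.57 to 3.65 FPKM at 10 DAS, 5.34 to 12.2 at 12 DAS, and 10.06 to 14.6 at 14 DAS in A10.1, and changed by 1.26 (SE 0.29, limma adjusted p = 0.0417). Sevir.9G504800, similar to the strigolactone receptor D14, changed by 1.05 (SE 0.23, limma adjusted p = 0.036). Of the 3 cytokinin riboside phosphoribohydrolase genes described and tested (LONELY GUY enzymes, which release active cytokinin), 2 were members. Sevir.3G125300 had 0.68 to 1.13 FPKM at 10 DAS, 2.46 to 4.29 at 12 DAS, and 2.63 to 6.31 at 14 DAS in *spp1*, against 0.88 to 3.07 FPKM at 10 DAS, 5.91 to 8.85 at 12 DAS, and 7 to 9.63 at 14 DAS in A10.1, and changed by 1.13 (SE 0.22, limma adjusted p = 0.0212). For Sevir.2G308300 the adjusted p by limma was 0.451 at 12 DAS and 0.367 at 14 DAS. These enzymes and the classes of the next paragraphs (SHI, ovate, ankyrin, F-box, protein phosphatase 2C) were picked out after the values had been seen.

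Of the 11 members described as genes of protein breakdown, 10 were higher by 12 DAS in *spp1*, against 21 of 191 described genes of this class and 0 lower. The 7 F-box members, parts of ubiquitin ligases, all rose, with changes of 1.13 to 1.79, against 13 of 45 F-box genes described and tested. Sevir.6G018300, an F-box gene with leucine-rich repeats, had 2.49, 2.74, 3.05, and 4.82 FPKM at 10 DAS, 16.99, 12.7, and 11.6 at 12 DAS, and 26.5, 31.8, 29.96, and 31.6 at 14 DAS in *spp1*. A10.1 had 2.66, 3.86, 2.92, and 3.14 FPKM at 10 DAS, 19.5, 18.98, and 21.4 at 12 DAS, and 34.2, 38.4, 35.04, and 36.1 at 14 DAS, above *spp1* in all libraries of 12 and 14 DAS. The change in *spp1* was 1.80 (SE 0.18, limma adjusted p = 0.00113). Sevir.2G067200, Sevir.2G067400, and Sevir.2G067500 carry close identifiers on chromosome 2, and how reads shared between such neighbours were divided is not given in the sources used here. Sevir.2G191000, described as a fusion of ubiquitin and ribosomal protein L40, had 1.05, 1.06, 0.96, and 2.12 FPKM at 10 DAS, 6.78, 4.69, and 4.18 at 12 DAS, and 7.64, 12.2, 11.8, and 15.8 at 14 DAS in *spp1*. A10.1 had 1.05, 1.54, 1.13, and 0.92 FPKM at 10 DAS, 15.4, 7.83, and 11.5 at 12 DAS, and 19.4, 20.2, 21.8, and 17.8 at 14 DAS, and the change in *spp1* was 1.44 (SE 0.23, limma adjusted p = 0.00904). Of the 5 ankyrin repeat members, 4 rose by 12 DAS and 5 by 14 DAS, when 8.11% of all genes tested were higher. These 4 were the only ones to rise by 12 DAS among the 10 ankyrin repeat genes described and tested. Sevir.9G138300 had 0.92, 0.48, 0.32, and 1.27 FPKM at 10 DAS, 3.42, 3.19, and 2.19 at 12 DAS, and 7.01, 10.2, 6.8, and 7.85 at 14 DAS in *spp1*. A10.1 had 1.25, 1.41, 0.78, and 1.29 FPKM at 10 DAS, 11.4, 10.8, and 10.9 at 12 DAS, and 19.8, 23.6, 15.04, and 17.7 at 14 DAS, and the change in *spp1*, 1.19 (SE 0.21, limma adjusted p = 0.0127), stood beside 2.46 in A10.1. Its neighbour Sevir.9G138400 changed by 1.31 (SE 0.24, limma adjusted p = 0.0174). Without replicate 1 of *spp1* at 12 DAS the adjusted p rose to 0.0663 for Sevir.2G191000 and to 0.0877 for Sevir.9G138300, whose call was also lost without replicate 2 of 12 DAS.

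On the log2(FPKM + 1) scale, the largest change in both genotypes belonged to Sevir.5G256600, a protein phosphatase 2C gene similar to HIGHLY ABA-INDUCED 3 of Arabidopsis, whose family damps abscisic acid signals. It had 2.48, 2.93, 1.47, and 2.96 FPKM at 10 DAS, 30.7, 16.9, and 21.1 at 12 DAS, and 33.7, 34.1, 53.4, and 73.96 at 14 DAS in *spp1*. A10.1 had 2.48, 7.76, 2.69, and 4.18 FPKM at 10 DAS, 54.99, 55.8, and 70.8 at 12 DAS, and 59.1, 83.1, 85.4, and 76.2 at 14 DAS. The genotypes overlapped at 10 DAS, were apart at 12 DAS, and overlapped again at 14 DAS, and the change in *spp1* was 2.77 (SE 0.29, limma adjusted p = 0.00121). The order depends on the scale, since the undescribed Sevir.9G259100 had the larger ratio of means in A10.1, 16.8-fold beside 14.2-fold, and with a pseudocount of 0.1 the *spp1* changes of Sevir.1G308700 and Sevir.2G210100 were above that of Sevir.5G256600. Sevir.1G308700, a subunit B gene of nuclear factor Y annotated as maize *lec1*, a regulator of embryo development, was listed at 0 in all 4 *spp1* libraries of 10 DAS and had 4.48, 1.28, and 4.42 FPKM at 12 DAS and 5.29, 3.87, 6.54, and 15.3 FPKM at 14 DAS. A10.1 had 2.41, 2.59, 1.18, and 1.03 FPKM at 10 DAS, 26.5, 24.4, and 14.6 at 12 DAS, and 8.62, 19, 11.2, and 7.32 at 14 DAS. Its adjusted p in *spp1* was 0.0185 by limma and rose to 0.115 without replicate 1 of *spp1* at 12 DAS, and the call was also lost without replicate 4 of 12 DAS or without replicate 1 or 2 of 10 DAS. Sevir.2G038500, described as uncharacterized, had 0.38 to 2.04 FPKM at 10 DAS, 4.9 to 6.31 at 12 DAS, and 12.5 to 15.8 at 14 DAS in *spp1*, against 2.18 to 3.19 FPKM at 10 DAS, 13.8 to 16.4 at 12 DAS, and 20.8 to 29.4 at 14 DAS in A10.1, and changed by 1.63 (SE 0.21, limma adjusted p = 0.00365). The peroxidase gene Sevir.2G418800 had 0.28 to 1.63 FPKM at 12 DAS in *spp1*, against 4.83 to 5.84 FPKM in A10.1.

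The ovate and SHI/STYLISH families had small changes in *spp1* by 12 DAS, with medians of 0.55 and 0.65 over 3 genes each. Ovate proteins are known as repressors that shape organs. Of the 3 ovate members 0 were called at 12 DAS, and of all 6 ovate genes described and tested 0 rose by then. At 14 DAS 3 of the ovate members were called, where 8.11% of all genes tested were higher than at 10 DAS. Sevir.5G368800, similar to OFP2, had 3.43, 5.68, 6.31, and 4.31 FPKM at 10 DAS, 7.5, 6.56, and 8.71 at 12 DAS, and 10.4, 15.5, 12.99, and 24.7 at 14 DAS in *spp1*. A10.1 had 2.52, 3.48, 1.98, and 1.97 FPKM at 10 DAS, 22.4, 11.3, and 12.8 at 12 DAS, and 20.3, 25.98, 25.6, and 18.5 at 14 DAS. At 10 DAS 3 of the 4 *spp1* libraries lay above all those of A10.1 and at 12 DAS all lay below them, and the change in *spp1* was 0.55 (SE 0.25, limma adjusted p = 0.246), beside 2.24 in A10.1. The 3 SHI/STYLISH members, whose Arabidopsis relatives act in gynoecium development and auxin synthesis, were called in 0 cases at 12 DAS and in 2 at 14 DAS. These members were all 3 of the described and tested genes of this family. Their changes in *spp1* ran from 0.62 to 0.83. Sevir.2G296400, similar to SHI, had 0.65 to 3.14 FPKM at 10 DAS, 1.53 to 6.34 at 12 DAS, and 2.74 to 8.34 at 14 DAS in *spp1*, against 0 to 2.91 FPKM at 10 DAS, 6.76 to 11.4 at 12 DAS, and 6.15 to 14.2 at 14 DAS in A10.1.

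The most abundant described members were Sevir.9G259300, Sevir.5G441400, Sevir.2G336100, Sevir.7G109900, and Sevir.8G210100. Sevir.9G259300, annotated as maize *cyp8* and similar to rice CYP78A11, a cytochrome P450 that sets the rate of leaf initiation in rice, had 403, 383, 204, and 473 FPKM at 10 DAS, 822, 608, and 618 at 12 DAS, and 769, 941, 1063, and 1134 at 14 DAS in *spp1*. A10.1 had 399, 318, 214, and 264 FPKM at 10 DAS, 1029, 787, and 888 at 12 DAS, and 957, 1213, 1037, and 958 at 14 DAS. The genotypes overlapped at 10, 12, and 14 DAS, and its change in *spp1*, 0.95 (SE 0.25, limma adjusted p = 0.0727), was past the threshold at 14 DAS (adjusted p = 0.00107 by limma). Sevir.8G210100, a dirigent-like gene, was among the 8 members with a higher mean in *spp1* at 12 DAS, with 95.7, 130.2, 159, and 176 FPKM at 10 DAS, 407, 367, and 385 at 12 DAS, and 331, 160.1, 296, and 179.9 at 14 DAS in *spp1*. A10.1 had 73.5, 72.2, 88.7, and 139 FPKM at 10 DAS, 220.4, 294, and 305 at 12 DAS, and 168, 124, 153, and 165 at 14 DAS. The *spp1* libraries of 12 DAS lay above those of A10.1, and the change was 1.49 (SE 0.26, limma adjusted p = 0.0127), or an adjusted p of 0.0773 without replicate 1 of *spp1* at 12 DAS. Chosen after its values were seen, Sevir.3G038200, described both as a glycine-rich cell wall protein and by a heavy metal transport domain, had 18.9 to 60.5 FPKM at 10 DAS, 95.5 to 119.7 at 12 DAS, and 152 to 202 at 14 DAS in *spp1*, against 12.2 to 20.3 FPKM at 10 DAS, 50.3 to 73.9 at 12 DAS, and 63.1 to 80.3 at 14 DAS in A10.1, and so was higher in all *spp1* libraries at 12 and 14 DAS. It rose in *spp1* by 1.46 (SE 0.28, limma adjusted p = 0.0206).

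The described members with the smallest change in *spp1* were Sevir.6G083500, Sevir.7G109900, Sevir.7G109800, Sevir.3G180900, and Sevir.5G145900. Sevir.6G083500, similar to ACT DOMAIN REPEAT 8, had 43.7, 46.8, 41.5, and 45.9 FPKM at 10 DAS, 50.6, 34.5, and 41.3 at 12 DAS, and 49.1, 50.8, 69.3, and 89.7 at 14 DAS in *spp1*. A10.1 had 42.3, 36.8, 42.8, and 30.8 FPKM at 10 DAS, 81.7, 58.4, and 81.98 at 12 DAS, and 85.2, 83.5, 103, and 105 at 14 DAS. The *spp1* libraries of 10 and 12 DAS overlapped and those of A10.1 did not, and the change in *spp1* was -0.09 (SE 0.19, limma adjusted p = 0.791). Sevir.3G180900, similar to trehalose-6-phosphate synthase 1, which makes a sugar signal, had 4.87 to 12.3 FPKM at 10 DAS, 5.77 to 14.6 at 12 DAS, and 14.8 to 26.2 at 14 DAS in *spp1*, against 6.33 to 10.9 FPKM at 10 DAS, 13.96 to 23.4 at 12 DAS, and 29.3 to 39.6 at 14 DAS in A10.1, with a difference of 0.17 (SE 0.32, limma adjusted p = 0.775) between 12 and 10 DAS in *spp1*. Sevir.7G109800, a late embryogenesis abundant domain gene, and Sevir.5G145900, an RNA binding protein gene, had adjusted p values of 0.624 and 0.308 at 12 DAS and of 0.00246 and 0.0296 at 14 DAS by limma. The 4 members with a lower mean at 12 than at 10 DAS in *spp1* were Sevir.6G083500 and, named for this reason after the values were seen, Sevir.7G046500, Sevir.5G451400, and Sevir.1G049200, which have no description. The last had 3.5, 6.63, 12.8, and 5.01 FPKM at 10 DAS, 2.24, 0, and 4.55 at 12 DAS, and 5.27, 2.31, 0, and 0 at 14 DAS in *spp1*. A10.1 had 6.29, 3.49, 0, and 0 FPKM at 10 DAS, 11.5, 5.57, and 3.95 at 12 DAS, and 3.93, 1.81, 7.02, and 0 at 14 DAS. Libraries of the same group differed between 0 and several FPKM, and its change in *spp1* was -1.48 (SE 0.71, limma adjusted p = 0.266).

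By identifier, which gives the chromosome, 28 of the 144 (19.4%) were on chromosome 3, 19 (13.2%) on chromosome 7, 17 (11.8%) on chromosome 9, and 10 (6.94%) on chromosome 1. Of the 12632 genes within the limits, 12.8% were on chromosome 3, 9.29% on chromosome 7, 19.1% on chromosome 9, and 12.3% on chromosome 1, and these differences were not tested. In 8 runs, 18 members had identifiers within 200 steps of another member. The runs included Sevir.9G087100 with Sevir.9G087300, Sevir.9G138300 with Sevir.9G138400, Sevir.7G109800 with Sevir.7G109900, and Sevir.9G259300 with the undescribed Sevir.9G259100.

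Of the marker lists found by words in the descriptions, the floral MADS-box and boundary lists, which hold members, were higher at 12 than at 10 DAS in A10.1, and the photosynthetic and vascular lists were lower. The summed level of 29 genes of photosynthetic leaf tissue, none of them a member, was 5195 to 8794 FPKM in *spp1* at 10 DAS, 5103 to 6288 at 12 DAS, and 2975 to 5147 at 14 DAS. In A10.1 it was 6941 to 8050 FPKM at 10 DAS, 4073 to 5511 at 12 DAS, and 2406 to 3071 at 14 DAS. The 6 floral MADS-box markers, 3 of them members, summed to 59.6 to 100.2 FPKM in *spp1* at 10 DAS, 195 to 308 at 12 DAS, and 434 to 475 at 14 DAS. In A10.1 they summed to 73.9 to 101 FPKM at 10 DAS, 287 to 390.1 at 12 DAS, and 502 to 632 at 14 DAS, so the genotypes overlapped at 12 DAS. The 6 boundary markers, 2 of them members and another among the 6 genes taken by the rule but not described here, summed to 205 to 285 FPKM in *spp1* and 330.5 to 395 FPKM in A10.1 at 12 DAS, with no overlap. The rule thus had a part in this difference. At 10 DAS they overlapped, with 130 to 252 FPKM in *spp1* and 148 to 195 FPKM in A10.1, and so they did at 14 DAS, with 272 to 403 FPKM and 373 to 448 FPKM. The 8 vascular markers summed to 98.5 to 123 FPKM in *spp1* and 67.9 to 82.5 FPKM in A10.1 at 12 DAS, with no overlap. At 10 DAS these sums overlapped, with 122 to 177 FPKM in *spp1* and 96.7 to 161 FPKM in A10.1. At 14 DAS they did not, with 76.55 to 87.7 FPKM and 58.4 to 69.6 FPKM in that order. No gene of the 5 lists was at 0 in all libraries. The sums for 32 genes of stress and RNA quality overlapped at 10 DAS and at 12 DAS, with 696 to 966 FPKM in *spp1* and 619 to 813 FPKM in A10.1 at 12 DAS. At 14 DAS they did not overlap, with 736 to 902 FPKM in *spp1* and 581 to 735 FPKM in A10.1. The part of these tissues in the results was not tested.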

How the data were processed

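RNA was sequenced from pools of *S. viridis* inflorescences of *spp1* and A10.1 at 10, 12, and 14 DAS (22 libraries in 6 groups of 3 or 4). The authors trimmed the reads with Trimmomatic, checked them with FastQC, aligned them with TopHat2 and Bowtie2 to the first genome version of *S. viridis*, and deposited FPKM values from Cuffdiff, whose tool versions are not given in the sources used here. FPKM scales each library by its mapped reads and each gene by its length, and read counts per gene were not used here, so that no counting interval could be given. The deposited mapping table gives read numbers and the percent of reads mapped. The fold change, p-value, and q-value columns of the authors' gene tables hold their own comparisons and were not used, and only the descriptions were taken from those tables. The study's list of auxin genes gave the descriptions of listed genes absent there, and both sources cover 3022 genes. No identifier matched the gene table at hand (0 matches), so names come from these descriptions, and no sequence or coordinate is given.

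The members and the lists of classes and markers were chosen with earlier results of these data known. Changes were computed on log2(FPKM + 1). Tests used limma 3.58.1 in R 4.3.3 (empirical Bayes with a trend) on the 11 *spp1* libraries with the 3 stages as groups, for genes whose mean over them reached 1 FPKM, with Benjamini-Hochberg adjustment over all genes tested and a threshold of 0.05. The labels call the libraries of a group biological replicates. Tables were made with Python 3.11.15, pandas 2.3.3, numpy 2.4.6, and scipy 1.17.1, figures with matplotlib 3.10.9, and the fit was tested on simulated data. Named genes were the described members with the 12 largest A10.1 changes, a classical maize name, a place on the auxin list, the 5 largest or 5 smallest *spp1* changes, or the 5 highest levels, with up to 4 examples per class. Alternatives were another pseudocount (0.1), no filter or a filter at 5 FPKM, median ratio scaling, one fit of all 22 libraries, a replicate block, shorter and longer lists, and leaving out each library.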

Additional observations from a re-analysis of the deposited data

Results flagged for a closer look

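In 5 of 104 groups of 4 libraries of the named genes, 1 library lay far from the other 3 by Dixon's criterion, about the rate at which chance flags groups. Replicate 4 of *spp1* at 10 DAS had 2.12 FPKM of Sevir.2G191000 (ubiquitin-L40), and the other 3 had 0.96 to 1.06 FPKM. Replicate 2 of *spp1* at 10 DAS had 0.13 FPKM of the peroxidase gene Sevir.2G418800, which the other 3 listed at 0. Replicate 3 of *spp1* at 10 DAS had 2.63 FPKM of Sevir.7G109800 (late embryogenesis abundant domain), and the other 3 had 5.67 to 6.31 FPKM. Replicate 2 of A10.1 at 14 DAS was high for both MADS-box genes, with 138.8 FPKM of Sevir.9G087100, where the other 3 had 105.53 to 109.77 FPKM, and 245.64 FPKM of Sevir.2G006400, where the other 3 had 197.9 to 205.06 FPKM.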

How the results depend on the processing

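The 66 members higher at 12 than at 10 DAS in *spp1* by limma became 43 of 68 tested when the 75 genes with the largest A10.1 change were taken. They were 95 of 293 tested with a longer list of the largest A10.1 changes. When 1 library was left out they ranged from 25 to 83, where 0.257% to 3.64% of all genes tested rose. With a filter at 5 FPKM they were 45 of 101 tested, where 1.05% of all genes rose. Under the other settings they were 55 (no filter, 0.623% of all genes) to 86 (one fit of all 22 libraries, 3.22%). Lower members were counted for the 144 alone, and were 0 at 12 DAS under each of those settings. The 23 members higher at 14 than at 12 DAS became 13 with a pseudocount of 0.1, 10 with no filter on low FPKM, and 50 in one fit of all 22 libraries, and ranged from 3 to 29 when 1 library was left out. The 1 member lower at 14 than at 12 DAS became 0 with no filter and 0 with median ratio scaling, and ranged from 0 to 1 when 1 library was left out. The 120 members higher at 14 than at 10 DAS were 84 of 101 tested with a filter at 5 FPKM and 111 to 124 under the other settings run, which did not include the shorter and longer lists. For the comparisons with 14 DAS, the share of all genes was counted only at the settings used for the results above. The rule still took 117 to 142 of the members when 1 A10.1 library was left out. Of single genes, leaving out 1 library gave changes of -0.23 to 0.04 for Sevir.6G083500, -0.0664 to 0.31 for Sevir.7G109900, -0.0935 to 0.54 for Sevir.3G180900, and -0.0418 to 0.29 for Sevir.7G109800. The sign turned for Sevir.6G083500 without replicate 2 of *spp1* at 12 DAS, for Sevir.7G109900 without replicate 3 of 10 DAS (-0.06) or replicate 1 of 12 DAS, for Sevir.3G180900 without replicate 3 of 10 DAS or replicate 2 of 12 DAS (-0.06), and for Sevir.7G109800 without replicate 3 of 10 DAS. The causes were not tested.

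Groups share replicate numbers, but not every pair of *spp1* libraries with the same number deviated together (r = -0.17 to 0.511, with 0.511 and 0.409 for replicates 2 and 4 between 12 and 14 DAS), so the numbers were not taken as pairing. With the replicate block, 59 members were higher at 12 than at 10 DAS, 54 of them among the 66, where 0.743% of all genes tested were higher. With this block 121 members were higher at 14 than at 10 DAS, and 25 were higher and 1 lower at 14 than at 12 DAS. With 3 or 4 libraries a group, the median standard error of 0.288 among the 23 members called in no contrast left changes near their median of 0.43 not detectable.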
